A study of Mus musculus with 15 samples.

Results

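The mRNAs of the Aurora kinases, of their passenger complex and of Polo-like kinase 1 were followed in single mouse oocytes at 2 stages of meiosis. The 8 genes, Aurka, Bora, Plk1, Aurkb, Aurkc, Incenp, Birc5 and Cdca8, were chosen by symbol and matched to Ensembl gene IDs, and all 8 were found among the 28785 IDs with counts. All 8 were also among the 10090 genes counted here as measured, which had at least 5 CPM (counts scaled to a common library total) in the stage with the higher level. The MII group held 6 mature eggs, arrested in metaphase of the second division. They came from the oviducts of females given 7 IU of PMSG (pregnant mare serum gonadotropin) and, some 48 h afterwards, hCG (human chorionic gonadotropin, again 7 IU). They were taken 20 h after hCG, and hyaluronidase at 300 IU/mL removed their cumulus cells. The GV group held 9 fully grown oocytes with an intact nucleus (the germinal vesicle), arrested in the first prophase and collected 44 h after 7 IU of PMSG alone. The females were about 6 to 8 weeks old where the labels give an age, which they do only where GV collection is described. No strain, genotype or mouse is named for either stage. Each library is 1 oocyte, read by MATQ-seq, a single-cell method that primes along the whole length of total RNA.

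These proteins are serine/threonine kinases and their partners, and they build and correct the spindle. Aurora A works at spindle poles, where it organises microtubules. Bora is the cofactor with which Aurora A switches on Plk1, a kinase of spindle poles, kinetochores and entry into division. Aurora B and its close relative Aurora C, which is made mainly in germ cells, each join a scaffold (Incenp), survivin (Birc5) and borealin (Cdca8) in the chromosomal passenger complex, which corrects faulty attachments between chromosomes and microtubules. A fully grown oocyte makes little new RNA, so its meiosis runs on stored mRNA, part of which is switched on by lengthening of the poly(A) tail. The cytoplasmic polyadenylation element (CPE), a U-rich sequence near the end of the 3′ UTR bound by the CPEB protein, marks such mRNAs.

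In the longest coding transcript of each gene, the final stretch of the 3′ UTR held a CPE-like sequence in the 3 Aurora mRNAs and in none of the other 5. The letters TTTTAT, searched on the mRNA strand in the last 120 bases of the longest coding transcript (GENCODE M21, build GRCm38), were found in Aurka (chromosome 2), Aurkb (chromosome 11) and Aurkc (chromosome 7). The same window held TTTTAT in 15.6% of 19346 coding transcripts, and TTTTAT or TTTTAAT in 20.0%. The matches began 59, 37 and 44 bases from the transcript end in Aurka, Aurkb and Aurkc. Each is shown with 10 bases before it, and the capitals mark TTTTAT (in Aurkb also the AATAAA that follows it without a gap, the hexamer that directs cleavage and polyadenylation).
Aurka, 3′ UTR: aaaggctattTTTTATgttggagttctg
Aurkb, 3′ UTR: aagaacaacaTTTTATAATAAAgtctta
Aurkc, 3′ UTR: ttgttttctcTTTTATgaagtgatgtta

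Neither TTTTAT nor TTTTAAT was in that window of Plk1 (chromosome 7), Bora (14), Incenp (19), Birc5 (11) or Cdca8 (4). Birc5 had TTTTAT at 2 places and TTTTAAT at 1 place, but further up a long 3′ UTR, 632 or more bases from the end. All 5 had a polyadenylation hexamer in the window, as did 79.4% of the transcripts searched (AATAAA in 65.3%, ATTAAA in 21.5%). Aurkb and Aurkc had 1 there too, but Aurka had none, and its only such hexamer began 227 bases from the end, upstream of its TTTTAT. The capitals here mark the hexamer of the window in the 5 genes. It is shown to compare the ends that lack the CPE letters with those of the Aurora mRNAs. The Pumilio motif TGTANATA was in none of the 8 windows, against 5.07% of all transcripts. A match describes letters in an annotated transcript, and the counts used here hold neither poly(A) tail lengths nor transcript ends.
Plk1, 3′ UTR: ctttatatatATTAAAatgtgtacatct
Bora, 3′ UTR: agtcctagaaAATAAAgatttactaccg
Incenp, 3′ UTR: gaggtagtttAATAAAgtgtatagccca
Birc5, 3′ UTR: ggggtaacggAATAAAatcacttgaaaa
Cdca8, 3′ UTR: tgctgttttcAATAAAtcttagtttgcc

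Libraries held 808641 to 2348281 counts per MII oocyte and 3687610 to 7103063 counts per GV oocyte. Since no mouse is named, the oocytes of a stage count as cells of 1 sample, so no test was made and differences are set beside the spread between oocytes. An unnamed feature, ENSMUSG00000119584, took 15.7% to 61.2% of MII counts, 3.43% to 11.2% in GV7 to GV9 and 0% in GV1 to GV6. It lowers the CPM of every other gene in the libraries that hold it. In CPM of summed counts the median measured gene stood at a log2 MII/GV of −0.98, so a stage ratio is given as log2 MII/GV measured from that gene unless CPM is named. A ratio between 0 and 0.98 is thus above the median gene but lower in MII in CPM. The number after ± is the spread, the SDs of the 6 MII and 9 GV oocytes combined. The column headers of the files differ between GV1 to GV6, GV7 to GV9 and all MII oocytes, so stage and kind of file cannot be told apart. The labelled cell type was checked against 12 oocyte markers, all of which had counts in both stages. They summed to 5712 to 7784 CPM in MII and 6932 to 27986 CPM in GV oocytes, with Zp3, a zona pellucida glycoprotein, the most abundant.

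In CPM, with the unnamed feature in the totals, Aurka was the most even of the 8 mRNAs among MII eggs. Its coefficient of variation (SD over mean, in CPM) was 10.3% in MII and 24.6% in GV. The feature took 15.7% of the counts in MII3 and 61.2% in MII6, where Aurka had 206 and 174 CPM. Even CPM is thus not an even share of the counts outside the feature. With the feature left out, this coefficient was computed only for Plk1 of the 8, so the order holds for CPM only and may differ without the feature. Relative to the median gene, the log2 level of Aurka ran from 3.33 to 4.13 among MII eggs. It had 174, 203 and 228 CPM (lowest, median, highest) in MII and 168, 300.0 and 389 CPM in GV oocytes. The GV oocytes reached lower and higher than the MII eggs, so the ranges overlapped, though 7 of the 9 GV values lay above the highest MII value. Means were 198 ± 20.4 CPM in MII (SD, n = 6) and 306 ± 75.2 CPM in GV (SD, n = 9). The stage ratio of Aurka was 0.31 ± 0.52 relative to the median gene and −0.67 in CPM, so the direction depended on the scale and the relative ratio was smaller than its spread. Relative to the median gene, 2 of 6 MII eggs lay above all GV oocytes.

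Bora, the cofactor with which Aurora A acts on Plk1, was lower in MII in CPM but not relative to the median gene. It had 20.2, 44.4 and 65.5 CPM in MII and 40.9, 58.6 and 132 CPM in GV oocytes. In CPM, 3 of 6 MII eggs were below all GV oocytes, and GV4, at 132 CPM, stood above the other GV oocytes. Measured from the median gene, 1 of 6 MII eggs was below all GV oocytes and 1 of 6 above all of them. The ratio was 0.24 ± 0.84 relative to the median gene and −0.74 in CPM, again on opposite sides of 0 and smaller than the spread. Its sign on the relative scale turned without MII5 and MII6 (−0.12). With totals that leave out the feature the ratio was −0.07.

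Plk1 was the most abundant of the 8 per length and the one whose stages stood apart relative to the median gene. It had 822, 1165 and 1648 CPM in MII and 870.3, 1075 and 1161 CPM in GV oocytes, ranges that overlapped, with the GV oocytes inside the span of the MII eggs. Relative to the median measured gene of the same oocyte, its log2 level was 5.81, 6.23 and 6.78 in MII and 4.95, 5.26 and 5.55 in GV oocytes. All 6 MII eggs were thus above all 9 GV oocytes on that scale, which was true of 1.61% of measured genes. The ratio of 1.16 ± 0.39 relative to the median gene and 0.17 in CPM was larger than the spread on the first scale. With GV1 to GV6 alone it was 1.16 and with GV7 to GV9 alone 1.05. It was below the 2-fold line with totals that leave out the feature (0.84) or with medians of CPM (0.88).

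The GV oocytes held nearly the same level of Plk1. Its coefficient of variation in CPM was 27.4% in MII eggs and 10.2% in GV oocytes. This property was singled out after the values were seen. Of 270 other genes within 2-fold of its GV level, 42 varied less in MII and 0 varied less in GV. The medians of these genes were 51.4% in MII and 40.9% in GV. Over all 10090 measured genes, 0 had a lower coefficient in GV. With the feature left out of the totals, Plk1 stood at 21.7% in MII and 10.8% in GV, and 2 of 10089 measured genes varied less in GV.

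**Figure D1:**
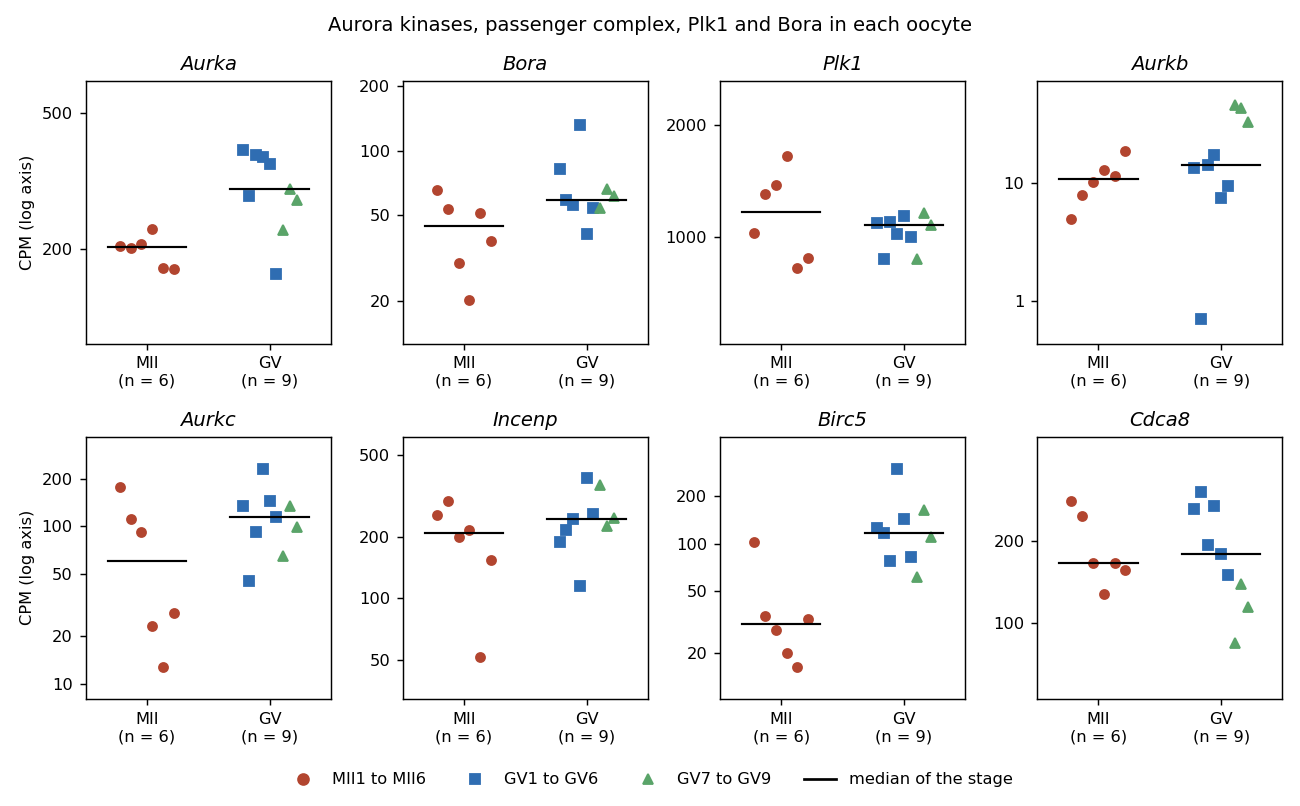
CPM (log axis) of each gene in every oocyte, with MII eggs (n = 6, circles) left of GV oocytes (n = 9, squares for GV1 to GV6 and triangles for GV7 to GV9), and black lines at the stage medians. Birc5 sits low in 5 of 6 MII eggs, Plk1 is tightly grouped in GV oocytes at 870.3 to 1161 CPM, and Aurkb is highest in GV7 to GV9.

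Aurkb, the passenger kinase of dividing body cells, was the scarcest of the 8, also per length. Its counts were 4 to 44 per MII egg and 3 to 192 per GV oocyte. It had 4.95, 10.9 and 18.7 CPM in MII and 0.704, 14.1 and 45.3 CPM in GV oocytes. The GV oocytes spanned the whole MII range. The ratio was 0.37 ± 1.78 relative to the median gene and −0.61 in CPM, and the sign of the relative ratio turned without MII6 (−0.05).

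The GV value of Aurkb depended on the set of GV files. In GV7, GV8 and GV9 it had 45.3, 43.1 and 32.8 CPM, against 0.704 to 17.3 CPM in GV1 to GV6, so the sets did not overlap. This made a log2 difference of 2.11 between GV7 to GV9 and GV1 to GV6, relative to the median gene. A difference of at least 2-fold in this direction was found for 18.1% of 10764 genes measured there, and CPM ranges apart in this direction for 8.01%. The MII ratio of Aurkb was 1.17 with GV1 to GV6 and −0.87 with GV7 to GV9 as the GV group, so its direction in MII depended on which GV oocytes were used.

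Aurkc, the germ-cell partner kinase, varied most among MII eggs, with a coefficient of variation of 86.9% in MII and 46.0% in GV. It had 12.7, 60.3 and 177 CPM in MII and 45.03, 115 and 232 CPM in GV oocytes. MII4, MII5 and MII6 were below all GV oocytes at 12.7 to 28.1 CPM, and MII1 to MII3 were inside the GV range at 92.4 to 177 CPM. On the scale of the median gene, 2 of 6 were below all GV oocytes, MII6 was inside their range, and MII1 was above all of them. The ratio was −0.04 ± 1.23 relative to the median gene and −1.02 in CPM.

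Counts of Aurkc are less certain than those of Aurka and Aurkb, because parts of its sequence have copies. Of the 1352 stretches of 50 bases in its longest transcript, 861 (63.7%) also occur in 1 or more of 10 annotated pseudogenes, 677 of them in Gm12463. The sources used here do not say how reads that match several genes were counted. The 10 pseudogenes held 98 counts beside 570 for Aurkc in MII and 1622 beside 5273 in GV, or 14.7% of the joint counts in MII and 23.5% in GV. By oocyte this share was 4.26% to 28.3% in MII and 14.3% to 37.2% in GV, and it was 34.2% in GV7 to GV9 against 19.9% in GV1 to GV6. Adding the pseudogene counts to Aurkc gave a ratio of −0.20. For Plk1, 10.9% of stretches are shared, most with the pseudogene Plk-ps1, which held 24 counts in MII and 173 in GV beside 11308 and 45684 for Plk1. Aurka, Aurkb, Incenp, Cdca8 and Bora share no such stretch with another annotated gene, and Birc5 shares 1.52%. The opposite-strand gene 9930104L06Rik overlaps Cdca8 and held 5 counts in MII and 129 in GV.

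Incenp, the scaffold that holds the kinase, overlapped widely between the stages. It had 51.6, 208 and 300.4 CPM in MII and 116, 244 and 386 CPM in GV oocytes. MII5 alone was below the GV range, and the other 5 MII eggs were inside it. The ratio was 0.56 ± 0.89 relative to the median gene and −0.42 in CPM, a direction that changed with the scale.

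Birc5 (survivin, which reads a phosphorylated histone tail and brings the complex to centromeres) had the lowest stage ratio of the 8. It had 16.4, 30.8 and 103 CPM in MII and 61.1, 117 and 299 CPM in GV oocytes. In CPM, 5 of 6 MII eggs were below all GV oocytes, and MII1, at 103 CPM, lay among the GV values. Measured from the median gene it was 4 of 6, with MII1 and MII6 inside the GV range. Means were 39.3 ± 31.9 CPM in MII (SD, n = 6) and 131 ± 71.0 CPM in GV (SD, n = 9). Summed counts gave 33.1 CPM in MII (exact Poisson 95% interval 29.6 to 37.0) and 131 CPM in GV (128 to 135), intervals that cover counting error only. This was 3.95-fold lower in MII in CPM.

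Relative to the median gene the ratio of Birc5 was −1.001 ± 0.95, which lay on the 2-fold line and slightly beyond its spread. It was −1.28 without MII1, the egg with the most Birc5, and −0.75 without GV4, the GV oocyte with the most. With GV1 to GV6 as the GV group it was −1.08, and with GV7 to GV9 it was −0.87. It stood inside the 2-fold line with means of CPM (−0.83), libraries thinned to 1 depth (−0.85) or a filter of 1 CPM (−0.88), and without MII2, MII3, MII4, MII5, GV4, GV5 or GV8 (−0.97 to −0.75). Under every alternative tried the ratio was negative, and −0.75 was the value nearest to 0.

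Cdca8 (borealin, which joins survivin and the scaffold at centromeres) had nearly the same mean CPM in both stages, 190 ± 58.6 in MII (SD, n = 6) and 188 ± 74.5 in GV (SD, n = 9). It had 127, 165 and 278 CPM in MII and 84.4, 179 and 299.9 CPM in GV oocytes, overlapping ranges. The ratio was 0.88 ± 0.68 relative to the median gene, larger than the spread, and −0.11 in CPM. The ratio was within that spread when the feature was left out of the totals (0.56) or with medians of CPM (0.65). With GV1 to GV6 alone it was 0.68, about equal to that spread. The spread includes GV7 to GV9, and none was computed for GV1 to GV6 alone, so this ratio was not compared with a spread of its own. Relative to the median gene, 4 of 6 MII eggs were above all GV oocytes. Between the sets of GV files Cdca8 differed too, in the direction opposite to Aurkb. It had 84.4 to 138 CPM in GV7 to GV9 and 150.3 to 299.9 CPM in GV1 to GV6, a log2 difference of −0.79 relative to the median gene, and 7.13% of genes had CPM ranges apart in that direction. Its stage ratio was 1.53 with GV7 to GV9 as the GV group.

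Of the 8 genes, Birc5 was at least 2-fold lower and Plk1 at least 2-fold higher relative to the median gene, 1 of 8 in each direction. The share over all measured genes was 15.5% on the lower side and 12.1% on the higher side. The share of 1 in 8 was near the background in both directions. The median ratio of the 8 was 0.34, against 0 for all measured genes by construction. In CPM, 0 of 8 had stages whose ranges did not overlap, beside 4.65% of measured genes with MII below GV and 0.0892% with MII above. Relative to the median gene, 0 of 8 had all MII eggs below all GV oocytes, beside 0.684% of measured genes, and Plk1 was the 1 of 8 with all MII eggs above. The 3 mRNAs that both passenger kinases need as partners had ratios of −1.001 for Birc5, 0.56 for Incenp and 0.88 for Cdca8.

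**Figure D2:**
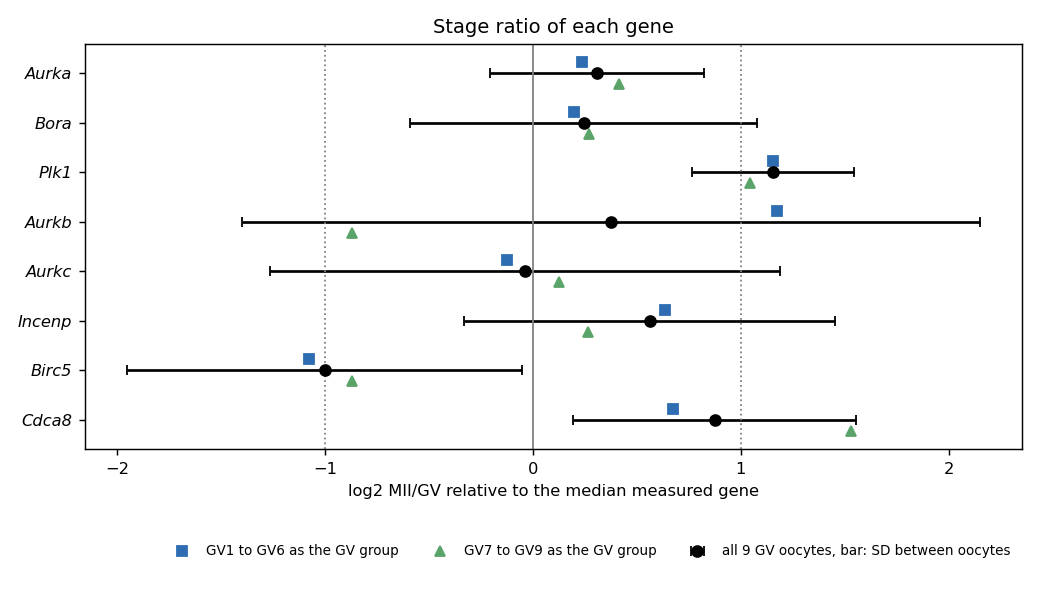
Stage ratio (log2 MII/GV relative to the median measured gene) of each gene, with all 9 GV oocytes as black circles (bars, SDs of MII and GV oocytes combined) and with GV1 to GV6 (squares) or GV7 to GV9 (triangles) as the GV group, and dotted lines at 2-fold. Plk1 stays near 1.1 with either set and Birc5 near −1, while Aurkb is at 1.17 with GV1 to GV6 and −0.87 with GV7 to GV9.

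Levels were compared between genes per length, as CPM per kb of the longest coding transcript. In MII the order was Plk1 at 534, Cdca8 at 109, Aurka at 103, Incenp at 57.8, Aurkc at 42.2, Bora at 14.7, Birc5 at 9.93 and Aurkb at 6.28 CPM per kb. Between neighbours in this order, only Plk1 over Cdca8 and Aurka over Incenp differed by more than their spread within oocytes, and in both cases all 6 eggs had that order. In GV oocytes the order was Plk1 at 473, Aurka at 165, Cdca8 at 118, Aurkc at 85.7, Incenp at 77.4, Birc5 at 39.3, Bora at 24.6 and Aurkb at 9.61 CPM per kb. There Plk1 over Aurka (9 of 9 oocytes), Aurka over Cdca8 (7 of 9), Birc5 over Bora (8 of 9) and Bora over Aurkb (8 of 9) exceeded the spread, and the other neighbours did not. The place of Birc5 depends on its transcript, since the longest has 3334 bases, most of it 3′ UTR. With its shortest coding transcript of 947 bases, Birc5 would stand at 35.0 CPM per kb in MII and 139 in GV.

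Within the Aurora mRNAs, Aurka led and Aurkb was a small part in both stages. Per length and over summed counts, Aurka made up 68.0% in MII and 63.3% in GV, Aurkc 27.8% in MII and 33.0% in GV, and Aurkb 4.14% in MII and 3.70% in GV. Within an oocyte such a share does not depend on the library total or the unnamed feature, but in the sums deeper libraries weigh more. For Aurkb the median over oocytes was 3.78% in MII and 2.66% in GV. As a share of counts, not corrected for length, Aurkb was 4.57% in MII (exact Clopper-Pearson 95% interval 3.80% to 5.45%) and 4.14% in GV (3.87% to 4.43%). These intervals are for the summed counts, and those of single oocytes are wider. In MII the share of counts ran from 1.28% in MII1 (0.350% to 3.25%) to 8.48% in MII6 (6.23% to 11.2%). In GV it ran from 0.212% in GV2 (0.0437% to 0.617%) to 13.4% in GV7 (11.7% to 15.3%). Some oocytes between these had overlapping intervals, such as MII3 (1.82% to 5.48%) and MII4 (3.19% to 7.14%).

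The share of Aurkc varied widely between oocytes. It was 8.47%, 26.7% and 53.5% (lowest, median, highest) of the per-length Aurora mRNA in MII and 17.6%, 31.4% and 46.8% in GV. In MII1 Aurkc exceeded Aurka, at 53.5% against 45.4%, and in the other 14 oocytes Aurka was the larger. Counting the pseudogenes with Aurkc raised its share to 31.1% in MII and 39.1% in GV. The share of Aurkb was 9.02% in GV7 to GV9 and 2.05% in GV1 to GV6, and the MII eggs reached from 1.08% to 7.93%.

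**Figure D3:**
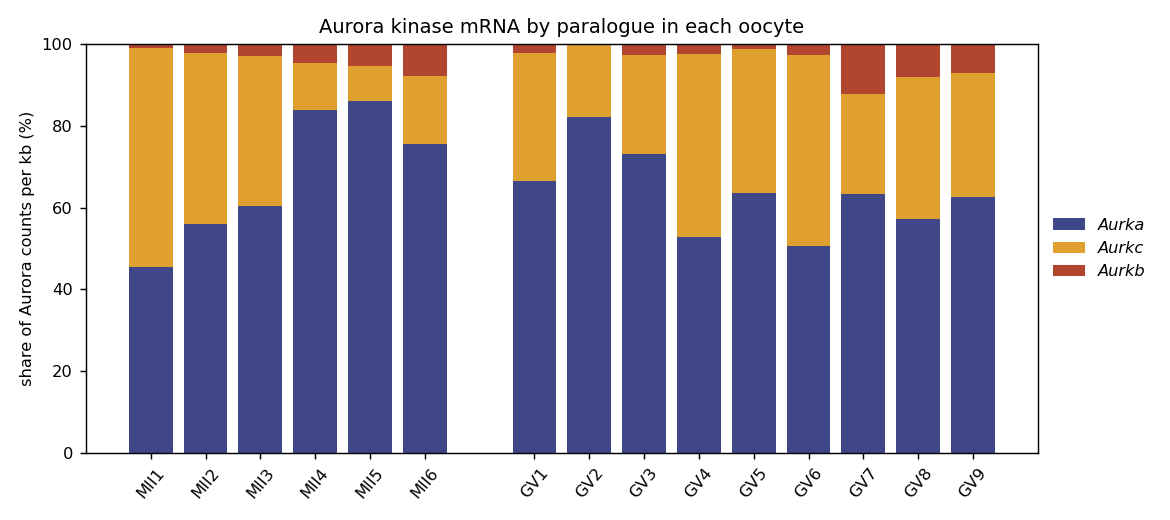
Share of Aurka, Aurkc and Aurkb (stacked bars, percent of their summed counts per kb) in each of 6 MII eggs and 9 GV oocytes. Aurkc ranges from 8.47% to 53.5% among MII eggs, and Aurkb is largest in GV7 at 12.3%.

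Ratios between genes of 1 oocyte cancel the scaling of its library. Survivin relative to the scaffold, Birc5/Incenp per length on the log2 scale, was −3.45, −2.54 and −1.36 (lowest, median, highest) in MII and −2.60, −1.20 and 1.33 in GV. The difference of the means, MII minus GV, was −1.41 ± 1.37, and 3 of 6 MII eggs were below all GV oocytes. Borealin relative to the scaffold, Cdca8/Incenp, was 0.23, 0.87 and 2.67 in MII and −1.10, 0.28 and 2.21 in GV, a difference of 0.53 ± 1.31 that was within the spread. The ranges of both ratios overlapped between the stages.

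The kinase ratio Aurkc/Aurkb was 0.62, 2.46 and 5.47 on the log2 scale in MII and 0.99, 3.81 and 6.26 in GV. The 6 eggs spread widely, with 3.61 to 5.47 in MII1 to MII3 and 0.62 to 1.31 in MII4 to MII6. GV oocytes differed by file set, with 0.99 to 2.12 in GV7 to GV9 and 3.17 to 6.26 in GV1 to GV6. The difference of means was −0.78 ± 2.55, smaller than the spread. It was −1.66 with GV1 to GV6 and 0.99 with GV7 to GV9 as the GV group, a change of direction. For cofactor against kinase, Bora/Plk1 was −6.64, −4.88 and −4.26 in MII and −5.10, −4.43 and −3.26 in GV. The difference was −0.81 ± 1.05, within the spread, and 2 of 6 MII eggs were below all GV oocytes.

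**Figure D4:**
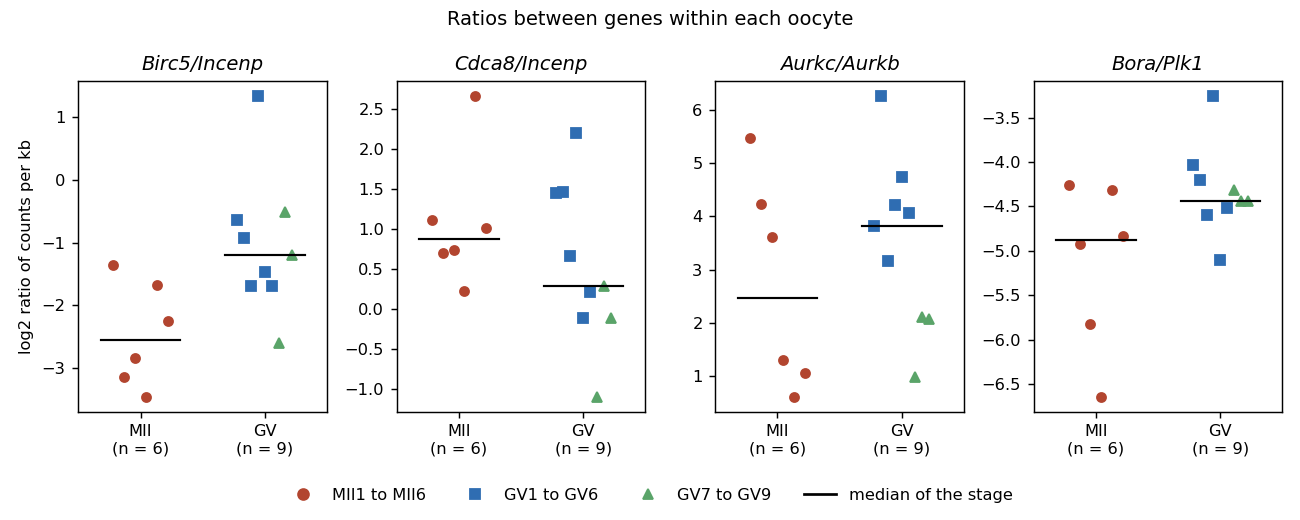
Log2 ratios of counts per kb between genes of the same oocyte, with MII eggs (n = 6) left of GV oocytes (n = 9, squares for GV1 to GV6 and triangles for GV7 to GV9) and black lines at the stage medians. The ranges overlap in all 4 panels, Birc5/Incenp is lowest in 3 MII eggs, and Aurkc/Aurkb of GV7 to GV9 lies below GV1 to GV6.

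The genes that work with these kinases were taken as 6 lists of 50 genes, of which 45 were measured. Of the 45, 6 (13.3%) stood at least 2-fold below the median gene and 2 (4.44%) at least 2-fold above it, beside the 15.5% and 12.1% of all measured genes. Their median ratio was −0.15, against 0.34 for the 8 genes above. In CPM, 7 of the 45 (Cep192, Tacc3, Bub1, Wee2, Fbxo5, Bub1b and Prc1) had all MII eggs below all GV oocytes, 15.6% beside the 4.65% of measured genes. On the scale of the median gene it was 0 of 45, beside 0.684%. No pattern particular to the lists is read from these counts.

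Among cofactors of Aurora A and its partners at spindle poles, 7 of 8 were measured, with a median ratio of −0.47, and 1 was at least 2-fold lower. That was Cep192, a pole protein that recruits Aurora A, at −1.62 ± 1.28, with 0, 6.33 and 17.1 CPM in MII and 21.4, 47.2 and 71.9 CPM in GV, ranges that did not overlap in CPM. Nedd1, which brings gamma-tubulin to poles, was highest of the list at 0.05 ± 0.49. Pcnt (pericentrin, a pole scaffold), which had the most counts of the list with no length correction, stood at −0.49 ± 1.17. Its median was 309 CPM in GV, below the 484 CPM of Tacc3, and 216 CPM in MII, above the 192 CPM of Tacc3. Ajuba was not measured.

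Among genes that recruit the passenger complex or are acted on by Aurora B and C, 11 of 11 were measured, with a median of −0.24, 2 lower and 0 higher. The lower genes were Kif20a (a kinesin of the central spindle) at −1.22 ± 1.53 and Bub1, whose histone mark recruits shugoshin and the complex, at −1.08 ± 1.55. Both were within their spread. Haspin, whose histone H3 mark is the docking site of survivin, was highest of the list at 0.46 ± 0.50, with 31.6, 81.3 and 125 CPM in MII and 75.9, 99.9 and 165 CPM in GV, which overlapped. In CPM it was thus lower in MII. Ttk, a checkpoint kinase with the most counts of the list, stood at 0.15 ± 0.82.

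Among partners and targets of Plk1, 14 of 14 were measured, with a median of −0.55, 2 lower and 0 higher. The lower genes were Wee1, an inhibitory kinase of Cdk1, at −1.22 ± 1.13 and Cenpu, a kinetochore protein that docks Plk1, at −1.18 ± 1.39. Wee2, the oocyte form of that inhibitory kinase, had the most counts of the list over both stages and stood at −0.57 ± 0.55. It had 215, 268 and 351 CPM in MII and 499, 734 and 1215 CPM in GV, ranges that did not overlap in CPM. Kif23, a central spindle kinesin, was highest at 0.74 ± 0.98.

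Of the other Polo-like kinases only Plk4, which drives centriole formation in other cells, was measured, at 0.99 ± 1.43 and just inside the 2-fold line. Plk2, Plk3 and Plk5 did not reach the level filter in either stage.

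Among subunits of the phosphatases that oppose these kinases, 10 of 11 were measured, with a median of 0.20, 1 lower and 2 higher. Ppp2r5d, a regulatory subunit of PP2A, had both the most counts and the highest ratio, 1.35 ± 0.74. It had 288, 366 and 570 CPM in MII and 177, 256 and 480 CPM in GV, which overlapped. Ppp1ca, a catalytic subunit of PP1, stood on the line at 1.004 ± 1.44. Ppp2r5a, another PP2A regulatory subunit, was lowest at −1.73 ± 0.88, with 0.852, 2.60 and 6.18 CPM in MII and 4.24, 16.9 and 27.5 CPM in GV, which overlapped. Ppp2cb was not measured. The activators of the anaphase promoting complex, which ends the action of many of these proteins, stood at 0.65 ± 1.04 for Cdc20 and 0.14 ± 1.03 for Fzr1, both within the spread.

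**Figure D5:**
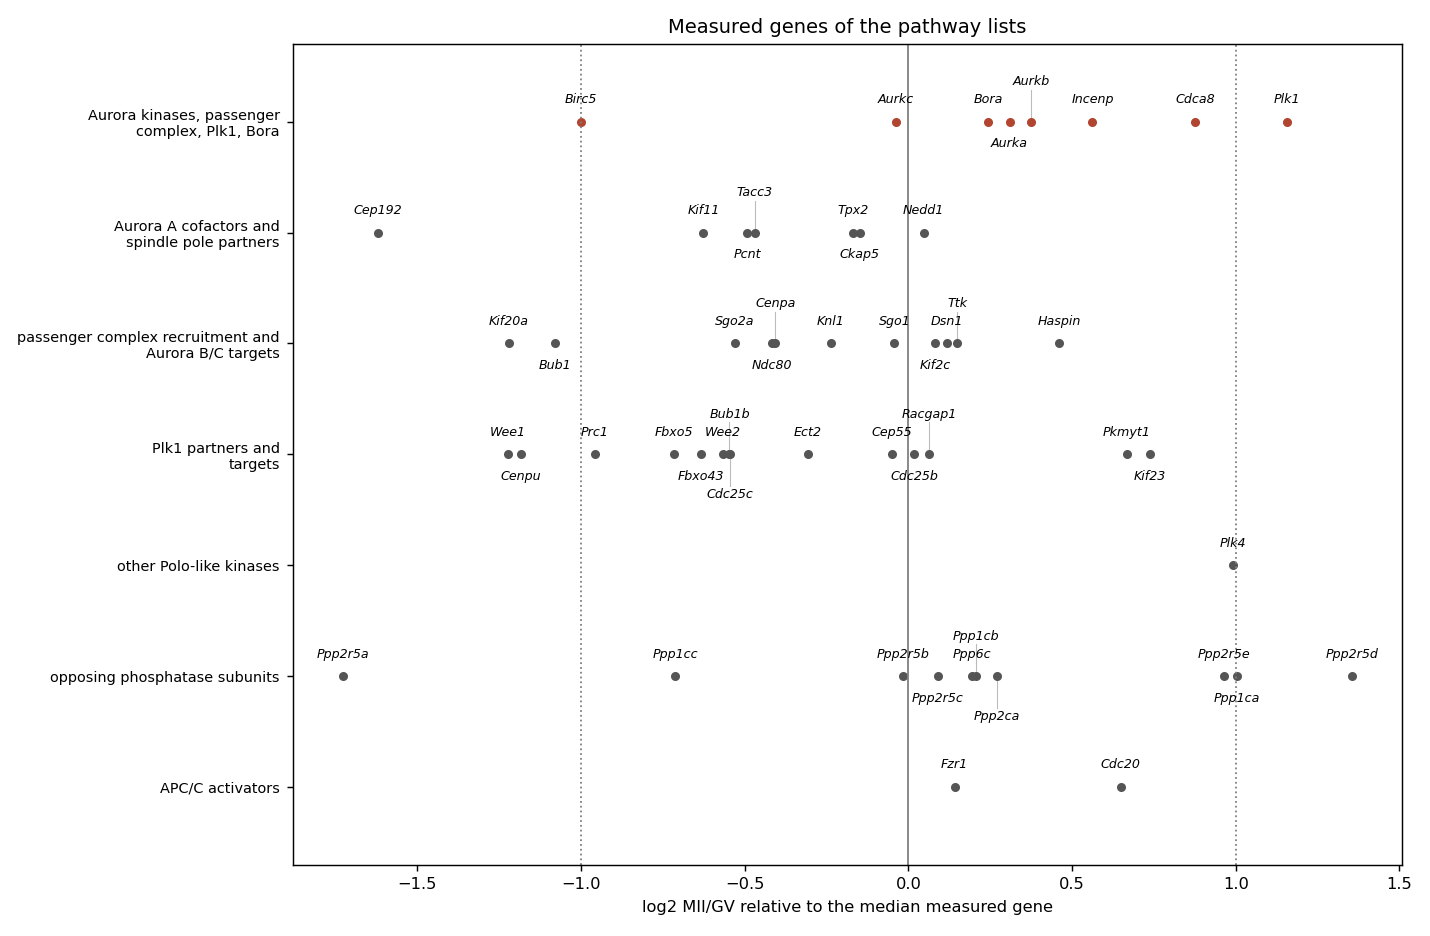
Stage ratio (log2 MII/GV relative to the median measured gene) of the measured genes by list, with the 8 genes described here in red at the top and the 45 measured pathway genes in grey, and dotted lines at 2-fold. Most genes lie between the dotted lines, with Cep192 (−1.62) and Ppp2r5a (−1.73) furthest left and Ppp2r5d (1.35) furthest right.

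For each of the 8 genes the measured gene with the nearest profile over the 15 oocytes was found, by the root-mean-square difference of log2 levels after each gene's own mean was taken away, among 9067 candidates. A value is small where both profiles were alike or where both were flat, and the root-mean-square of the 8 genes about their own means was 0.37 (Aurka) to 1.24 (Aurkb). Plk1 was nearest to Cdc6, a DNA replication licensing factor, at 0.25, and Aurka to Gtf2f1, a subunit of a general transcription factor, at 0.23. The values were 0.33 for Cdca8 with Ei24, 0.34 for Bora with Zmynd19, 0.37 for Incenp with Klhl18 and 0.38 for Birc5 with Nae1. They were 0.48 for Aurkc with Nup54, a nuclear pore protein, and 0.59 for Aurkb with Polr2e, a subunit shared by RNA polymerases. The median candidate stood at 1.01 to 1.55, and the values share library, depth and stage, so they describe profiles only.

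Cells that surround oocytes can carry mRNAs of dividing cells. The 18 cumulus and granulosa cell markers summed to 14.0 to 85.1 CPM in MII eggs and 102 to 354 CPM in GV oocytes. Of the 18, 9 had counts in MII and 16 in GV. The MII libraries were shallower, with at most 2348281 counts against at least 3687610 in GV. The numbers of markers with counts or at 0 are therefore not compared between stages at equal depth, here and below. Nr5a2 was the most abundant of them, at 7.89 to 63.3 CPM in MII and 48.9 to 122 CPM in GV. The median sums of all 18 were 47.7 CPM in MII and 148 CPM in GV, so this gene weighs heavily in them. Foxl2, Amh, Inha, Inhba, Inhbb, Hsd17b1, Ptx3, Areg and Star were at 0 in all MII eggs. Theca and stroma markers summed to 0 to 27.9 CPM in MII and 0.236 to 27.7 CPM in GV, with Col1a1 the most abundant and 3 of 10 with counts in MII and 9 of 10 in GV, and all but Cyp11a1, Col1a1 and Pdgfra of the 10 were at 0 in MII. Blood and immune markers summed to 0 to 11.5 CPM in MII and 0.206 to 8.34 CPM in GV, with Cd68 the most abundant, 3 of 10 with counts in MII and 5 of 10 in GV, and haemoglobin genes and Lyz2 at 0 in MII. Of the 8 oviduct markers Cdh1, which oocytes also express, made up nearly all of 292 to 1257 CPM in MII and 541 to 1325 CPM in GV, with 3 of 8 having counts in MII and 8 of 8 in GV. Ovgp1, Pax8, Krt8, Krt18 and Foxj1 were at 0 in MII. The cumulus and granulosa sums are in CPM, in which the median measured gene itself was lower in MII (log2 MII/GV −0.98). The part of the higher cumulus and granulosa sums of GV oocytes in the Birc5 difference was not tested. Within GV oocytes, the lowest sum of these markers (102 CPM, GV4) came with 299 CPM of Birc5 and the highest (354 CPM, GV1) with 125 CPM. The other GV oocytes had sums of 130 to 179 CPM and 61.1 to 164 CPM of Birc5. Whether the sums and Birc5 go together was not tested.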

How the data were processed

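MATQ-seq libraries of 6 MII and 9 GV oocytes were used, made per the labels' protocols with 28 PCR cycles and shearing to 300 bp. The authors deposited whole-number counts per gene ID, 1 file per oocyte, and IDs that a file lacks were set to 0. The tools cutadapt 4.0 and STAR 2.7.10a and the build GRCm39 are named per the submitters' processing notes. The sources used here do not state the counting tool, annotation, strand, handling of multiple matches or any molecular identifiers, so reads of overlapping genes cannot be told apart.

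Counts were summed per stage, 0.5 was added to each sum, and log2 MII/GV was taken relative to the median of genes that reached 5 CPM in the higher stage. Spreads used log2(CPM + 1) per oocyte. Intervals (95%) are exact and cover counting error only, since PCR reads are not independent molecules. Symbols, lengths and 3′ UTRs came from GENCODE M21 on GRCm38, with no coordinates. Of the IDs, 28402 of 28785 had a symbol, and 116 of 116 list entries matched. Python 3.11.15, pandas 2.3.3 and scipy 1.17.1 were used, and edgeR 4.0.16 and DESeq2 1.42.0 in R 4.3.3 gave scaling factors for alternatives only. The ratio calculation was tested on simulated data.

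Members and lists were chosen with earlier results of these data known. Named by rule were all 8 genes and, in each list, the lowest and highest measured gene and the gene with the most counts. The gene with the most counts in each marker list and each gene's nearest profile (predicted genes left out) were named by rule too. The most abundant gene of a marker list is that with the most counts over all oocytes, not corrected for length. Bub1, Cenpu, Ppp1ca, other genes with stages apart in CPM, the unmeasured genes and the pseudogenes were named after their values were seen.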

Additional observations from a re-analysis of the deposited data

Results flagged for a closer look

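In 30 groups of values checked (levels in CPM and within-oocyte ratios of each stage), 4 values stood apart from the rest of their group by Dixon's criterion at 95%. Chance alone flags about 1 in 20 groups if values are normally distributed, which was not checked, so 4 of 30 is not read against that rate. MII1 had 103 CPM of Birc5, the highest of the MII eggs, with the next at 34.8 CPM. GV4 had 299 CPM of Birc5, the highest of the GV oocytes, with the next at 164 CPM. GV4 was also the highest GV oocyte for Bora, at 132 CPM, with the next at 82.4 CPM. As log2 levels relative to the median gene, Birc5 was at 2.50 in MII1 (next 1.72) and 3.19 in GV4 (next 2.45). On that scale Bora was at 2.01 in GV4 (next 1.30). The criterion was not applied on that scale, so these 3 flags hold for CPM only. MII5 had the highest log2 Cdca8/Incenp of the MII eggs, at 2.67, with the next at 1.11, and it was the egg with the least Incenp, at 51.6 CPM.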

How the results depend on the processing

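Of 452 values recomputed under alternatives, 432 moved by less than the spread between oocytes (counts of genes, by at most 1.5 times) and 20 moved further. A turn of direction was looked for only in the ratios of at least 2-fold (Birc5, Plk1 and Birc5/Incenp), and 0 values turned. Smaller ratios could change sign within a wide spread. Examples were Aurkb (1.17 with GV1 to GV6, −0.87 with GV7 to GV9), Aurkc/Aurkb (−1.66 and 0.99) and Bora (0.24, and −0.12 without MII5 and MII6). With totals of all counts the log2 ratios were −0.67 for Aurka, −0.42 for Incenp, −1.98 for Birc5, −0.11 for Cdca8, 0.17 for Plk1 and −0.74 for Bora, since the median gene itself stood at −0.98. It stood at −0.29 with the unnamed feature left out, −0.11 with TMM scaling and −0.06 with median-of-ratios scaling. The pathway genes at least 2-fold lower numbered 26 with totals of all counts and 10 with no level filter, against 6. Those at least 2-fold higher numbered 0 with totals of all counts, 4 with a filter of 1 CPM, and 1 with totals without the feature, TMM, median-of-ratios, means or medians of CPM, thinning, or a filter of 20 CPM, against 2. With 1 oocyte left out they numbered 1 to 3, and the lower ones 5 to 7. The Aurkb share of GV Aurora mRNA was 9.02% in GV7 to GV9 alone, against 3.70%. With 1 oocyte left out, the ratio of Birc5 ran from −1.28 to −0.75 and that of Plk1 from 1.01 to 1.25. No paired analysis was possible because no test was made and the replicate numbers only name oocytes. Totals of MII eggs limit Aurkb most, at 4 to 44 counts per egg. The pseudogene sums and the alternatives for within-oocyte ratios were chosen after seeing the data.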
